A study of Mus musculus with 8 samples.

Results

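The interferon response and antigen presentation genes were followed in luminal cells, the milk-making epithelium of the mammary gland, sorted from mice on day 15 of pregnancy. They are 43 genes taken by name: interferon receptors, transcription factors of the response, sensors of viral RNA, antiviral effectors and genes of class I antigen presentation. Of these, 42 had a probe set named in the platform annotation, among 19505 named genes in all. Nlrc5 is not analysed here. The tested cells, labelled a3a6KO, came as 4 arrays, and the control luminal cells as 4 arrays. The label a3a6KO names the integrin chains alpha 3 and alpha 6, encoded by Itga3 and Itga6, and the titles of its samples begin with DKO while also carrying the word Ctrl, so the groups follow the cell subtype label. Both groups came from fresh tissue of pregnant mice that was dissociated enzymatically before the labelled cells went through a flow cytometer, and RNA was amplified from 500 pg in each case. The deleted exons, the Cre line, the strain and age of the mice, any pooling of glands and the sorting gates are not described in the labels. The series design calls the 4 samples of each group biological replicates.

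Interferons are secreted proteins that cells release when they detect viral nucleic acid. Type I interferons bind a receptor made of Ifnar1 and Ifnar2, and interferon gamma binds one made of Ifngr1 and Ifngr2. Signals from both reach the nucleus through STAT proteins, which act with interferon regulatory factors on short promoter elements. The genes they switch on include antiviral proteins and the machinery that cuts proteins into peptides and displays them on class I molecules to T cells. Nearly all nucleated cells keep some class I display without interferon, whereas many antiviral genes are scarcely transcribed until an interferon signal arrives.

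The deposited values are log2 signals, and each array carries 5222 control sets that target introns, which served as its background. A gene was called above background on an array where its value exceeded the 95th percentile of those intron sets, which lay between 6.45 and 6.76 on a3a6KO arrays and between 6.38 and 6.90 on control arrays. All 11 luminal marker genes, Krt8 among them, were above background on all 8 arrays. Krt8 averaged 10.5 ± 0.14 in a3a6KO cells and 10.4 ± 0.19 in control cells (SD, n = 4 each). Itga6 measured 5.95, 3.65, 8.21 and 7.85 on a3a6KO arrays 1 to 4, against 8.83, 8.73, 9.14 and 8.80 on control arrays 1 to 4. The groups did not overlap for Itga6, and its value was above background on 2 of 4 a3a6KO arrays. Itga3 had 5.15 ± 0.58 in a3a6KO cells and 6.42 ± 0.80 in control cells. Neither passed limma's test after Benjamini-Hochberg adjustment over all genes (adjusted p = 0.944 for both). The basal marker Krt14 averaged 7.77 ± 0.89 in a3a6KO and 9.36 ± 1.48 in control samples, and all 10 listed basal markers had the lower mean in a3a6KO cells.

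Some class I genes, receptors and transcription factors of the response were measured above background in these cells. Most antiviral genes, like most genes on the array, were not. Of the 42 members, 11 (26.2%) were above background on at least 4 arrays, against 14.2% of all genes. Another 26 members (61.9%) were above background on no array, against 76.4% of all genes. The 7 members above background on all 8 arrays were Ifnar2, Ifngr2, Irf2, Bst2, Tapbp, Psmb9 and B2m. Irf1 was above on 7 arrays, Psmb8 on 5, and Ifi35 and Trim25 on 4 each. By role, 4 of 8 measured class I genes, 2 of 4 receptors, 2 of 7 transcription factors, 3 of 20 antiviral effectors and 0 of 3 RNA sensors reached background on 4 or more arrays. These counts depend on where background is set. At the 90th percentile of the intron sets, 18 of 42 members passed on 4 or more arrays, against 4929 of 19505 genes. At the 99th, 1 of 42 members passed, against 517 of 19505 genes, so no excess over all genes was seen there. RMA values cannot tell a silent gene from a weakly expressed one below that line, so a member under it has a bound and no measured level.

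**Figure D1:**
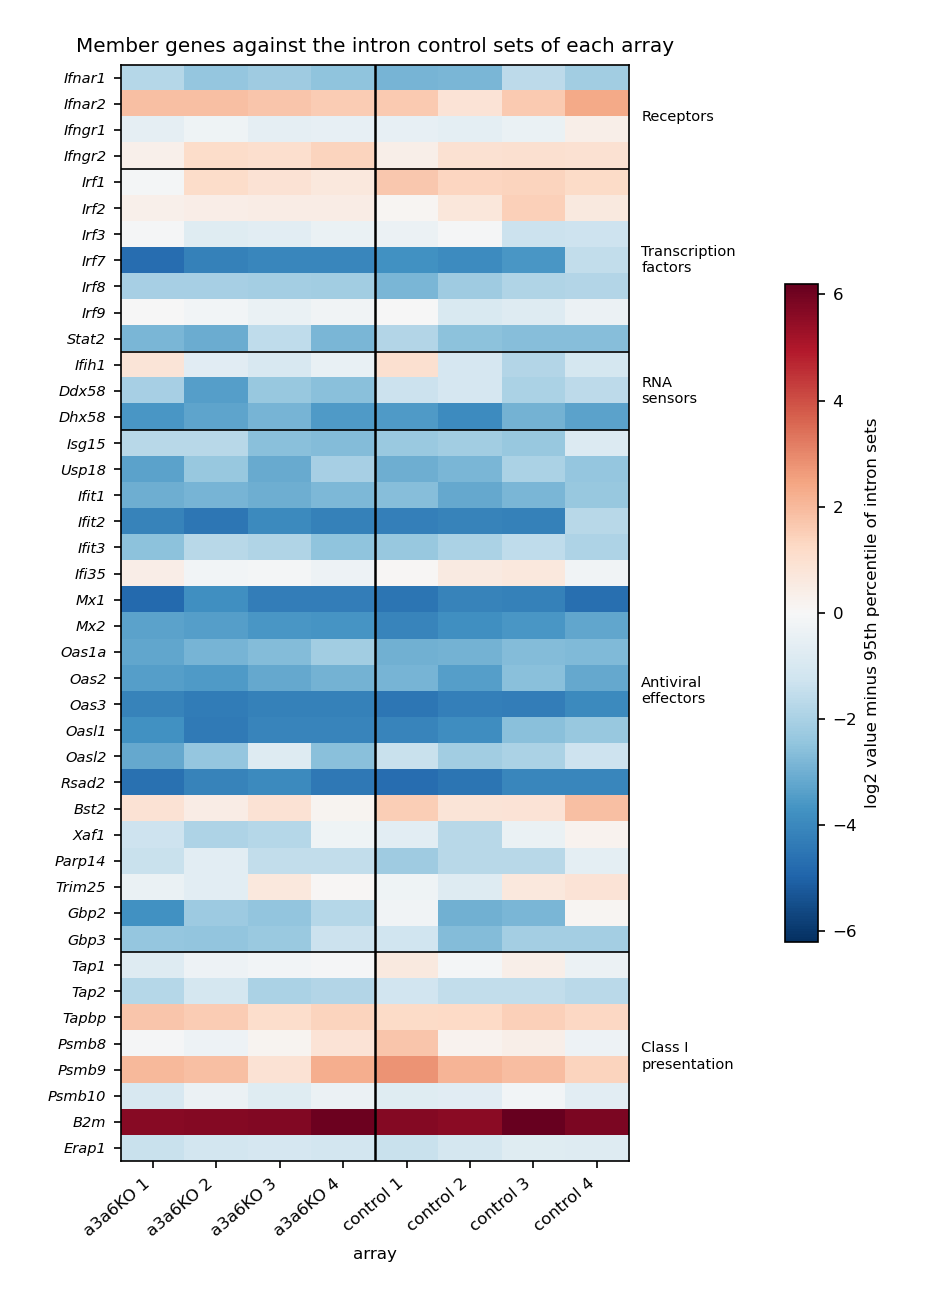
Heat map of the 42 member genes (rows, by role) on 4 a3a6KO arrays and 4 control arrays (columns); colour is the gene's log2 value minus the 95th percentile of the intron sets of the same array, red above and blue below background. The row of B2m is dark red on all 8 arrays, and most rows of antiviral effectors are blue on all 8.

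Several antiviral genes lay among the intron sets themselves. Isg15, a ubiquitin-like protein attached to other proteins in the interferon response, exceeded between 68.5% and 91.3% of the intron sets over the 8 arrays. Mx1, a GTPase that blocks influenza viruses, exceeded 14.3% to 45.0% of them. Rsad2, also called viperin, exceeded 19.3% to 41.8%, and Oas3, an oligoadenylate synthetase that answers to double-stranded RNA, 25.1% to 41.6%. These 3 were the members below the intron median on every array, and 9 members were below it on at least 1 array. The same counts over all genes were not made. Isg15 averaged 4.45 in a3a6KO and 4.70 in control cells, above the median over all genes, which lay between 4.07 and 4.11 on the 8 arrays. The listed ligands were no brighter: Ifnb1, Ifng and the other 5 interferon genes measured were above background on no array in either group.

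The promoters of the members were searched for the short elements through which interferon signals act, and 5 are printed here because the genes they serve stand for the different patterns below. Windows of 300 bases, 250 before and 50 after the annotated start, came from RefSeq on build GRCm38.p6 and were found for 35 measured members. The core of the interferon-stimulated response element was searched as GAAANNGAA and its reverse TTCNNTTTC, and the gamma-activated site as TTCNNNGAA, which reads the same on both strands. The first stood in 16 of 35 members (45.7%), against 9.76% of the 27025 genes with a window. It was found in 10 of 15 antiviral effectors, in both sensors with a window, in 2 of 7 transcription factors, in 2 of 7 class I genes (B2m and Erap1) and in 0 of 4 receptors. The second stood in 10 of 35 members (28.6%), against 9.55% of genes, among them Irf1, Ifnar1, Ifnar2, Bst2 and Psmb8. Members were listed for their known place in this response, so these shares describe the list. A match of letters is no evidence that a factor binds there. Each sequence below holds the 250 bases before the start, 5′ to 3′ on the strand of the gene. In the first 4, capitals mark matches to either element.
Isg15, chr4:156200819-156201068, minus strand: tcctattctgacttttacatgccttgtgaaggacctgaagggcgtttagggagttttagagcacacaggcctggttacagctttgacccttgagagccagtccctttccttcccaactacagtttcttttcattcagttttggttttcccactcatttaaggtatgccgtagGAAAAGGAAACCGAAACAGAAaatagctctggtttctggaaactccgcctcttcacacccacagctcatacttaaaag
Bst2, chr8:71537473-71537722, minus strand: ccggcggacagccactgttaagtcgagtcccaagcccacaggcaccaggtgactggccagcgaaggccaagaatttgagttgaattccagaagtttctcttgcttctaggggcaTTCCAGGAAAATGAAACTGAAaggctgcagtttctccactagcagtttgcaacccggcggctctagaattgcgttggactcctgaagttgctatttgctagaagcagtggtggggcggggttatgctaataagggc
B2m, chr2:122147437-122147686, plus strand: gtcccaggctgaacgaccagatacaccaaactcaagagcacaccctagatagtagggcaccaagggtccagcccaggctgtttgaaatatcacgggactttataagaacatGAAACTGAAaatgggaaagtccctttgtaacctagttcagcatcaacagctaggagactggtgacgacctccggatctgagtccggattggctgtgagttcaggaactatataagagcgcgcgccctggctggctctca
Irf1, chr11:53769764-53770013, plus strand: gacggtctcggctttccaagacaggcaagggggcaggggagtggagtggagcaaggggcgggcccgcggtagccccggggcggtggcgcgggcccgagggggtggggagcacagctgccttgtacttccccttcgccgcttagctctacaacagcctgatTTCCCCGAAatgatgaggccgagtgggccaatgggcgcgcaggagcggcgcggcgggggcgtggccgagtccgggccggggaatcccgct
Tap1, chr17:34187306-34187555, plus strand: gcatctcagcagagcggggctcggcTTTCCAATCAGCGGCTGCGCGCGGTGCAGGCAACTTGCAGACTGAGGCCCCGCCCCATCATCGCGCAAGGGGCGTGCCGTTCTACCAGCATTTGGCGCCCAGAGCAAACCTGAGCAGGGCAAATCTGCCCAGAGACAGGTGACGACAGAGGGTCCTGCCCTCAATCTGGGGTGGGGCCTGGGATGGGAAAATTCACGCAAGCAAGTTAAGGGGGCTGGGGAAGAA
The capitals before Isg15 hold 3 overlapping response element cores, which begin 78, 72 and 66 bases before the start. In Bst2, a gamma-activated site that begins 136 bases before the start overlaps the first of 2 cores, at 130 and 124. B2m has 1 core, at 139 bases, and Irf1 has 1 gamma-activated site, at 90 bases. In Tap1, the capitals mark something else: 225 bases, chr17:34187331-34187555, that also lie upstream of Psmb9, which is transcribed from the opposite strand. Neither the Tap1 window nor the Psmb9 window holds either element as spelled here.

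No member passed the test between a3a6KO and control cells after adjustment over all genes. Limma called 0 of 42 members at an adjusted p under 0.05, and 0 (0%) of the 19505 genes, with the members' adjusted p between 0.944 and 0.992. At an unadjusted p under 0.05 stood 4 members (9.52%), Irf1, Irf7, Ddx58 and Oasl1, all with the lower mean in a3a6KO cells, against 5.13% of all genes. The mean was lower in a3a6KO cells for 27 of 42 members (64.3%), against 50.4% of all genes, and the median difference (a3a6KO minus control) was -0.17 log2 units for members and -0.0025 for all genes. Groups did not overlap for 1 member, Irf7 (2.38%), against 2.94% of all genes. The lean rested partly on single arrays: without control 1, 23 members had the lower mean and the median was -0.036, and without control 4 the values were 25 and -0.11. The median was -0.092 without a3a6KO 3 and -0.096 without a3a6KO 4. In bulk RNA of sorted cells, fewer cells of a responding type and less RNA per cell cannot be told apart.

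**Figure D2:**
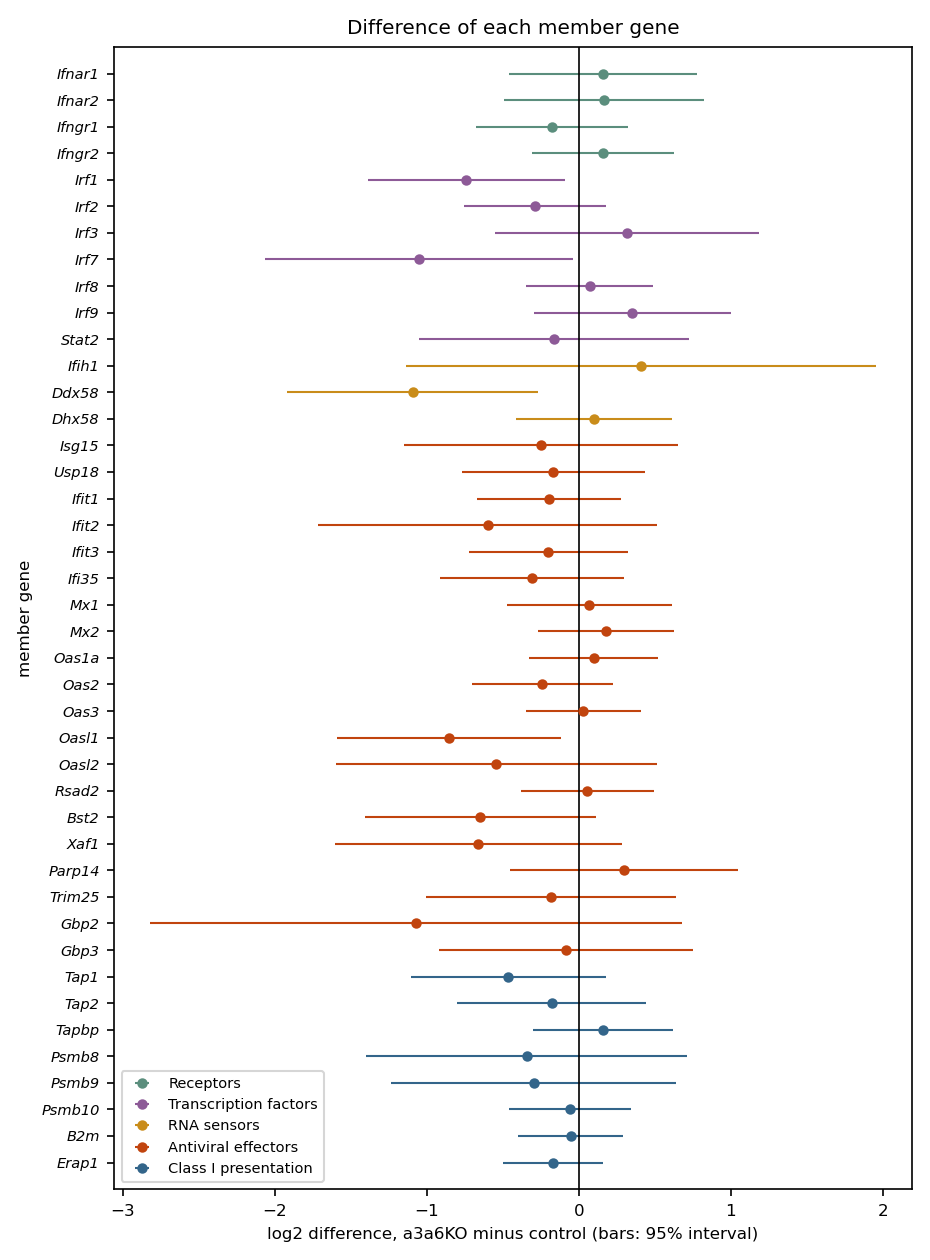
Log2 difference of each of the 42 member genes, a3a6KO minus control (x axis; points are limma estimates, bars 95% intervals, colours the roles). Points lie between -1.09 and 0.41, and only the bars of Irf1, Irf7, Ddx58 and Oasl1 stay below 0, before any adjustment over genes.

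Of the 4 receptor genes, 3 had the higher mean in a3a6KO cells, and the values of the groups overlapped for each. Ifnar2, the chain of the type I receptor that binds interferon tightly, measured 8.60, 8.54, 8.36 and 8.04 in a3a6KO samples, against 8.54, 7.51, 7.98 and 8.85 in control samples. The 4 a3a6KO values lay inside the control range, and the difference was 0.17 (SE 0.29). Ifngr2, the signalling chain of the interferon gamma receptor, measured 7.05, 7.82, 7.66 and 7.82 in a3a6KO samples, against 7.26, 7.61, 7.39 and 7.46 in control samples. Its a3a6KO arrays held both the lowest and the highest values, and the difference of 0.16 (SE 0.21) was 0.34 without a3a6KO 1 and 0.08 without a3a6KO 2 or a3a6KO 4. Ifngr1, the ligand-binding chain of the same receptor, measured 6.20, 6.39, 6.04 and 5.92 in a3a6KO samples, against 6.37, 6.08, 5.96 and 6.84 in control samples. It was above background on control 4 alone, and its difference of -0.175 became 0.0008 without that array. Ifnar1, the partner of Ifnar2, measured 5.0, 4.26, 4.40 and 3.96 in a3a6KO samples, against 4.0, 3.85, 4.77 and 4.36 in control samples. It was above background on no array, the groups overlapped, and the difference of 0.16 (SE 0.28) was -0.038 without a3a6KO 1.

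Among the transcription factors, Irf1 was the member above background with the smallest p. Irf1, a direct activator of class I and other interferon gamma targets, measured 6.66, 7.78, 7.51 and 7.12 in a3a6KO samples, against 8.57, 8.03, 7.76 and 7.67 in control samples. The 2 highest values were both control arrays, and only a3a6KO 2 reached into the control range. The means were 7.27 ± 0.49 in a3a6KO and 8.01 ± 0.41 in control cells, a difference of -0.74 (95% interval -1.39 to -0.09). Its adjusted p by limma was 0.944, and the exact permutation test over the 70 assignments of arrays, two-sided, gave p = 0.0857, where the smallest possible is 0.0286. Irf2, which binds the same element as Irf1 and often counters it, measured 7.09, 7.07, 7.09 and 6.91 in a3a6KO samples, against 7.0, 7.37, 7.85 and 7.09 in control samples. The a3a6KO values sat close together, 3 of them inside the control range and a3a6KO 4 below it, and the difference of -0.29 (SE 0.21) was -0.11 without control 3.

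Irf7, the factor that amplifies type I interferon production, was the member whose groups did not overlap, at values far below background. It measured 2.03, 2.45, 2.59 and 2.39 in a3a6KO samples, against 3.13, 2.80, 2.78 and 4.96 in control samples. The gap between the groups was narrow apart from control 4, and the difference of -1.05 (SE 0.45) became -0.54 without it. The exact permutation p was 0.0286, the smallest that 4 against 4 arrays can give. Every gene whose groups do not overlap gets this p, so it adds nothing to the lack of overlap, which 2.94% of all genes showed. Limma's adjusted p was 0.944. The other 4 factors were above background on no array and differed by between -0.16 and 0.35: Irf3, which starts interferon transcription once a virus is sensed, Irf8, best known from myeloid cells, and Irf9 and Stat2, partners in the type I signalling complex. Irf3 spread widely within the groups, with 6.68, 5.93, 5.98 and 6.05 in a3a6KO samples, against 6.52, 6.60, 5.04 and 5.22 in control samples.

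The RNA sensors leaned in different directions. Ddx58, which encodes RIG-I, a cytoplasmic detector of viral RNA, measured 4.72, 3.26, 4.25 and 3.86 in a3a6KO samples, against 5.55, 5.63, 4.41 and 4.87 in control samples. Only a3a6KO 1 reached into the control range, yet all 8 values were below background. The difference was -1.09 (SE 0.37), with an exact permutation p of 0.0571 and an adjusted p of 0.944 by limma. Ifih1, which encodes MDA5, a detector of long double-stranded RNA, measured 7.55, 5.97, 5.63 and 5.98 in a3a6KO samples, against 7.91, 5.65, 4.54 and 5.40 in control samples. Here replicate 1 of each group stood above background and the other 6 arrays did not, and the difference was 0.41 (SE 0.69). Without a3a6KO 1 it was -0.015, and without control 1 it was 1.09. Dhx58, a relative of both that modulates their signal, measured 3.17, 3.39, 3.73 and 2.92 in a3a6KO samples, against 3.41, 2.79, 3.45 and 3.16 in control samples, all below background.

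Of the 20 antiviral effectors, 14 had the lower mean in a3a6KO cells, with a median difference of -0.20. Above background on no array were 15 of the 20, near the share over all genes (76.4%). Bst2, or tetherin, which holds budding virus particles to the cell surface, was the effector above background on all 8 arrays. It measured 7.67, 7.11, 7.53 and 6.60 in a3a6KO samples, against 8.42, 7.48, 7.24 and 8.36 in control samples. Control 1 and control 4 stood above all other arrays, while control 2 and control 3 lay within the a3a6KO range. The means were 7.23 ± 0.48 in a3a6KO and 7.88 ± 0.60 in control cells, a difference of -0.65 (95% interval -1.41 to 0.11), with an exact permutation p of 0.20. Gbp2, an interferon-induced GTPase that attacks membranes of intracellular pathogens, showed the same array pattern more sharply and was picked out after its values were seen. It measured 3.02, 4.40, 4.18 and 4.68 in a3a6KO samples, against 6.70, 3.69, 3.55 and 6.62 in control samples. Unlike Bst2, it was above background on control 4 alone. Control 2 and control 3 were below 3 of the 4 a3a6KO arrays, so the difference of -1.07 (SE 0.78) was -0.55 without control 1 and -0.58 without control 4.

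Other antiviral effectors mostly lay below background. Oasl1, an oligoadenylate synthetase-like protein that in mice restrains the translation of Irf7, measured 2.99, 2.27, 2.55 and 2.36 in a3a6KO samples, against 2.82, 2.84, 3.78 and 4.15 in control samples. Its difference was -0.855 (SE 0.33), with an exact permutation p of 0.0857, and only a3a6KO 1 reached into the control range. Xaf1, a pro-apoptotic partner of the apoptosis inhibitor XIAP, measured 5.46, 4.75, 4.85 and 6.20 in a3a6KO samples, against 6.23, 4.98, 5.97 and 6.72 in control samples. It was above background on control 4 alone, the groups overlapped, and the difference of -0.66 was -0.41 without that array. Trim25, a ubiquitin ligase that activates RIG-I, measured 6.35, 5.99, 7.29 and 6.52 in a3a6KO samples, against 6.64, 5.86, 7.05 and 7.33 in control samples. Ifi35, an interferon-induced leucine zipper protein, measured 7.15, 6.49, 6.48 and 6.14 in a3a6KO samples, against 6.95, 7.22, 7.02 and 6.30 in control samples. Both overlapped between groups. The difference was -0.18 for Trim25, and -0.31 for Ifi35, where it was -0.17 without a3a6KO 4 and -0.50 without a3a6KO 1. Ifit2, of the family that binds foreign RNA, stood at 4.76 in control 4 and between 2.19 and 2.68 on the other 7 arrays.

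**Figure D3:**
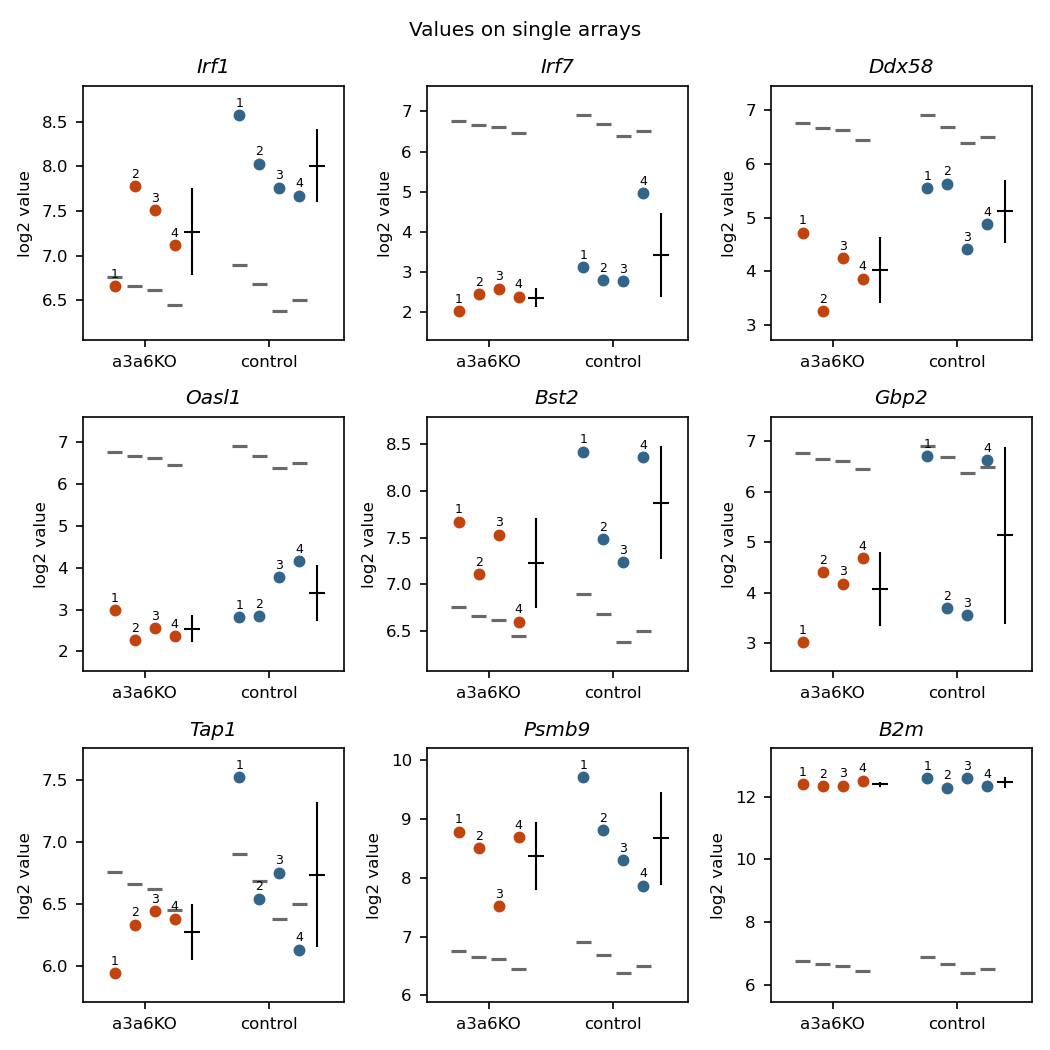
Log2 values (y axis) of 9 members on each array, a3a6KO in orange at the left and control in blue at the right of each panel, numbered by replicate; grey dashes are the 95th percentile of the intron sets of that array and black bars the group mean with its SD (n = 4). Irf1, Bst2, Psmb9 and B2m lie above the dashes on nearly all arrays, and Irf7, Ddx58 and Oasl1 lie below them on all 8.

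Class I presentation was read at several steps, and 7 of its 8 measured genes had the lower mean in a3a6KO cells, with a median difference of -0.17. B2m, the light chain shared by all class I molecules, measured 12.40, 12.33, 12.35 and 12.51 in a3a6KO samples, against 12.59, 12.28, 12.59 and 12.34 in control samples. It exceeded at least 99.9% of the intron sets on every array, and the 4 a3a6KO values lay within the control range. Its difference of -0.0525 had a 95% interval from -0.40 to 0.29. Tapbp, or tapasin, which helps load peptides onto class I molecules, measured 8.50, 8.22, 7.71 and 7.83 in a3a6KO samples, against 8.08, 7.91, 7.85 and 7.79 in control samples. It was the class I member with the higher mean in a3a6KO cells, by 0.16 (SE 0.20), which was 0.0125 without a3a6KO 1.

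The immunoproteasome subunits Psmb8 and Psmb9 and the transporter gene Tap1 shared one feature, a high value on control 1. Psmb9, a subunit that replaces a constitutive one when interferon gamma is present, measured 8.78, 8.50, 7.51 and 8.68 in a3a6KO samples, against 9.70, 8.80, 8.30 and 7.86 in control samples. Psmb8, another such subunit, measured 6.68, 6.33, 6.77 and 7.28 in a3a6KO samples, against 8.61, 6.89, 6.74 and 6.19 in control samples. Tap1, a subunit of the transporter that carries peptides into the endoplasmic reticulum, measured 5.94, 6.33, 6.44 and 6.38 in a3a6KO samples, against 7.52, 6.54, 6.75 and 6.13 in control samples. For each of the 3, control 1 was the highest of the 8 arrays and control 4 the lowest control array. The differences were -0.30 (SE 0.42) for Psmb9, -0.34 (SE 0.47) for Psmb8 and -0.46 (SE 0.28) for Tap1. Without control 1 they were 0.0475, 0.16 and -0.20. Psmb9 and Tap1, which share the upstream bases printed above, were both highest on control 1, while a3a6KO 3 held the lowest Psmb9 value and the highest Tap1 value of its group. Erap1, which trims peptides inside the endoplasmic reticulum, measured 5.36, 5.52, 5.56 and 5.31 in a3a6KO samples, against 5.54, 5.59, 5.61 and 5.69 in control samples, all below background. Psmb10, a further such subunit, did not share the high value on control 1, with 5.75, 6.29, 5.87 and 6.10 in a3a6KO samples, against 6.17, 5.97, 6.23 and 5.87 in control samples. Psmb10 and Tap2, the partner of Tap1, were below background as well and differed by -0.06 and -0.18.

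Set against each other, antiviral and class I genes had like median differences and were both high on control 1, but parted on control 4. With the sensors counted among them, 15 of 23 antiviral genes had the lower mean in a3a6KO cells and a median difference of -0.20, against 7 of 8 and -0.17 for class I genes, a gap of -0.024. The gap changed sign with single arrays: it was -0.21 without control 1 and 0.11 without control 4. To compare arrays, each gene was centred on its mean over the 8 arrays and the centred values were averaged. Class I genes averaged -0.072, 0.018, -0.265 and -0.031 on a3a6KO arrays, against 0.616, 0.023, -0.006 and -0.282 on control arrays. Antiviral genes and sensors averaged -0.082, -0.143, -0.059 and -0.226 on a3a6KO arrays, against 0.383, -0.155, -0.135 and 0.417 on control arrays. Control 1 was thus high for both, whereas control 4 was the highest array for antiviral genes and the lowest for class I genes. Both ranks of control 4 were narrow, against control 1 for antiviral genes and against a3a6KO 3 for class I genes. The class I median was 0.0004 without control 1, -0.054 without a3a6KO 3 and -0.11 without a3a6KO 4. The antiviral median was -0.10 without control 4 and -0.12 without a3a6KO 1.

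Over all members, the highest of the 8 values fell on control 1 or control 4 for 24 of 42 genes (57.1%), against 24.1% of all genes, with ties counted on each array. This pair of arrays was picked after the members' values were seen, so part of the excess is built in. Outside the list, the share was 42.5% of 40 further antiviral genes and 33.3% of 15 further class I genes, which are described below. Control 1 held the highest value of 10 of these antiviral genes and control 4 of 7. For the further class I genes the counts were 5 and 0. Control 1 alone held the highest value of 14 members (33.3%, against 12.3% of all genes) and control 4 of 10 (23.8%, against 11.9%). Control 1 also had the highest 95th percentile of the intron sets (6.90). It had the fewest genes above background, 2244 against 2553 to 3229 on the other arrays. The part of these traits of control 1 in the members' values was not tested. Members averaged -0.065, -0.075, -0.072 and -0.191 on a3a6KO arrays, against 0.387, -0.098, -0.113 and 0.227 on control arrays. The 4 a3a6KO arrays and control 2 and control 3 were therefore close to each other, with control 1 and control 4 above them. A split of the arrays into batches could not be tested, since the sources used here give no extraction, scan or sorting date.

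**Figure D4:**
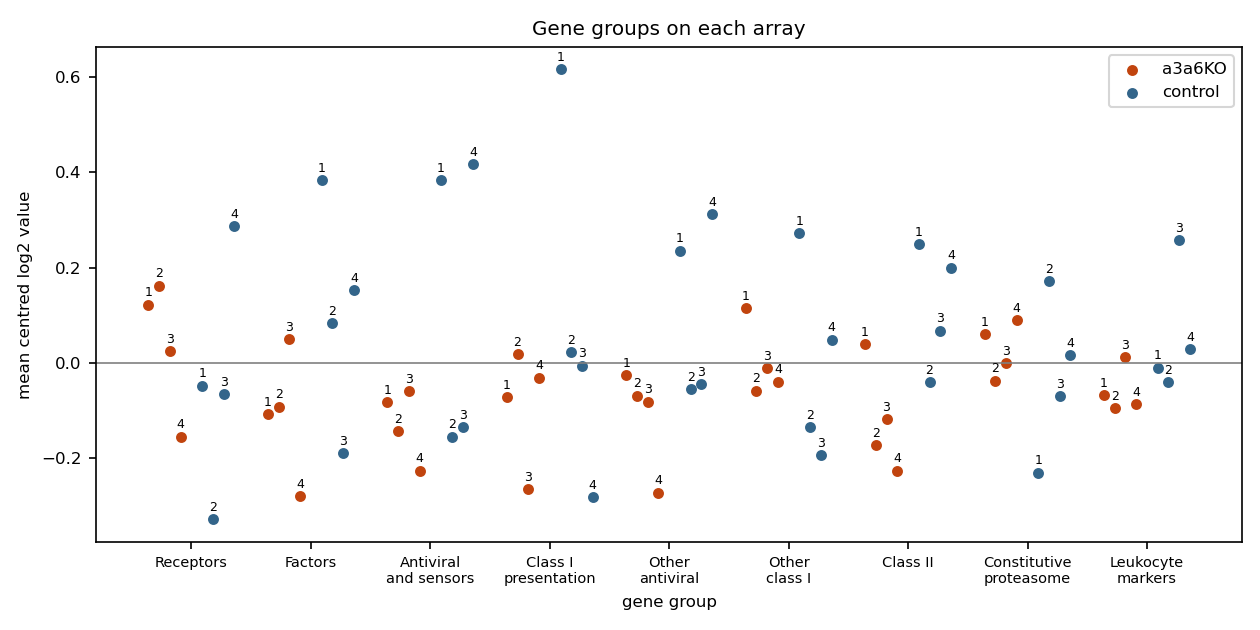
Mean centred log2 value (y axis) of 9 gene groups (x axis) on each array, a3a6KO in orange at the left and control in blue at the right of each group, numbered by replicate. Control 1 and control 4 stand highest for antiviral genes, control 1 alone for class I genes, and control 3 for leukocyte markers.

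Genes of the same pathway outside the list were read for the same lean. Of 40 further antiviral genes, 29 (72.5%) had the lower mean in a3a6KO cells, and the median difference was -0.18. Above background on no array were 30 of the 40, near the share over all genes (76.4%). Their centred means were -0.026, -0.069, -0.081 and -0.272 on a3a6KO arrays, against 0.236, -0.055, -0.045 and 0.312 on control arrays, so the same control arrays were high. Igtp, an immunity-related GTPase, measured 4.17, 3.83, 4.47 and 3.69 in a3a6KO samples, against 6.53, 4.74, 4.51 and 5.06 in control samples. Its groups did not overlap, all 8 values were below background, and its difference of -1.17 (SE 0.41) was -0.73 without control 1. Trim21, an antibody receptor in the cytoplasm, Gbp4, a GTPase related to Gbp2, and Phf11d differed by -0.85, -0.83 and -0.34, also below background, and Gbp4 by -0.49 without control 1. None of the 40 passed limma's threshold.

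Further class I genes did not share the lean: 5 of 15 had the lower mean in a3a6KO cells, with a median difference of 0.04. Their centred means were 0.115, -0.058, -0.011 and -0.039 on a3a6KO arrays, against 0.272, -0.135, -0.193 and 0.049 on control arrays. Control 1 was again the highest, but control 4 was not low as it was for the class I members. H2-K1, a classical class I heavy chain, measured 10.48, 10.34, 10.58 and 10.44 in a3a6KO samples, against 11.18, 10.30, 10.44 and 10.62 in control samples. Control 1 stood apart, and the difference of -0.175 became 0.0067 without it. H2-D1, the other classical heavy chain named here, measured 8.0, 7.57, 8.21 and 7.86 in a3a6KO samples, against 8.54, 7.72, 7.93 and 7.98 in control samples, a difference of -0.1325 that became 0.033 without control 1. Probe sets of the H2 genes may share sequence, so their values are uncertain as measures of 1 gene. Rfx5 and Rfxap, subunits of the factor that binds class I and class II promoters, differed by -1.18 (SE 0.53) and 0.56 (SE 0.49), and Psme2, a proteasome activator subunit, by 0.36 (SE 0.29). The difference of Rfx5 was -0.68 without control 1, and that of Psme2 was 0.1675 without a3a6KO 3.

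The constitutive proteasome genes, the counterpart of the immunoproteasome, split evenly: 6 of 13 had the higher mean in a3a6KO cells. The median difference was 0, that of a gene with equal means in both groups. Psma7 and Psmb3 differed by 0.39 and 0.435, and Psmb1 and Psma5 by -0.16 and 0.145. On control 1, where class I members averaged 0.616 above their means, these genes averaged -0.23. Class II genes, which display peptides on specialised cells, had the lower mean in a3a6KO cells for 6 of 8, and 7 of the 8 were above background on no array. H2-Eb1 and H2-DMb1 differed by -0.61 and -0.69, the second by -0.34 without control 3, and H2-Oa and H2-Ab1 by -0.245 and -0.295.

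Markers of other cells were read on the same arrays. Of 18 leukocyte markers measured, 17 were above background on no array, and their mean level ranged over 3.44 to 3.55 on a3a6KO arrays and 3.50 to 3.79 on control arrays. Ptprc, which encodes the pan-leukocyte antigen CD45, measured 4.11, 3.15, 4.24 and 3.59 in a3a6KO samples, against 4.84, 3.44, 7.07 and 3.70 in control samples. It was above background on control 3 alone. The members averaged 0.387, -0.098, -0.113 and 0.227 on control arrays 1 to 4. The lower mean lay in a3a6KO cells for at most 13 of the 18 markers (72.2%), since equal means were counted to a side, and the median difference was -0.10. Tyrobp, Csf1r and Itgam differed by 0.31, -0.29 and -0.235 below background, and their part in the members' values was not tested. Of 8 endothelial markers, 6 were above background on 1 to 3 arrays and 2 on none. Averaged in the same centred way, they were high on a3a6KO 3 (1.31) and control 4 (1.65), where the members averaged -0.072 and 0.227. The mean level of endothelial markers ranged over 3.95 to 6.33 on a3a6KO arrays and 4.35 to 6.67 on control arrays. Eng, Emcn, Cldn5 and Kdr differed by 0.94, 0.48, -0.515 and -0.225. Without those 2 arrays, 28 members had the lower mean in a3a6KO cells, with a median difference of -0.077. Of 10 basal markers, 5 were above background on at least 4 arrays, 2 of these on all 8. Basal markers averaged -0.898, -1.079, 0.689 and -0.729 on a3a6KO arrays, against -0.302, 1.067, -0.153 and 1.403 on control arrays. They were thus high on control 4, control 2 and a3a6KO 3, where the members averaged 0.227, -0.098 and -0.072. The basal markers Trp63, Krt5, Myl9 and Krt14 differed by -2.43, -2.535, -1.06 and -1.60. Of 7 fibroblast markers, 6 were above background on no array and 5 had the lower mean in a3a6KO cells, with differences of 0.61 for Col1a2, 0.875 for Col3a1, -0.985 for Dcn and -0.25 for Fap. The 5 adipocyte markers, among them Cidec, Retn, Adipoq and Lep, were above background on no array. Of the 11 luminal markers, 4 had the lower mean in a3a6KO cells, with a median difference of 0.0975. The milk protein genes Lalba and Wap differed by -0.74 and -0.585, and Elf5 and Cldn3 by -0.30 and 0.24. The part of basal, endothelial or other cells in the members' values was not tested.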

How the data were processed

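Gene expression was measured on 8 Affymetrix arrays of sorted luminal cells, 4 a3a6KO and 4 control. The authors deposited log2 signals for each probe set, made with Affymetrix Expression Console and RMA per the submitters' processing notes. RMA corrects background, sets the arrays to 1 distribution by quantiles and summarises the probes of a set, so a shift of most genes at once would be removed, and low values are compressed. Software versions and the genome build were not given in the sources used here. Scanner files were not used here, and precision is limited by having 4 arrays a group.

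Probe sets were named from the platform annotation: of 28846 sets, 19572 had 1 symbol, 0 several and 9274 none. For the 55 symbols with several sets, the set of the highest mean was kept, which gave 19505 genes. No member had more than 1 set. The groups were compared with limma 3.58.1 in R 4.3.3 (group only, all 8 arrays, two-sided), with p-values adjusted by Benjamini-Hochberg over all 19505 genes and a threshold of 0.05. Single genes were also tested by exact permutation over the 70 assignments of arrays. Promoter windows were read from RefSeq tables with Python 3.11.15, and 7 measured members had none.

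Values on every array are given for members above background on at least 4 arrays, for members whose groups do not overlap and for the 3 of smallest p in each role, plus Irf3, Gbp2 and Psmb10 where they are described. Of other lists, up to 4 genes of smallest p are named, together with H2-K1, H2-D1, Ptprc, Krt8, Krt14, Itga3 and Itga6. Cd74 is not analysed here. The members and lists were chosen with earlier results of these data known. Lists are described by counts and medians beside all genes. The alternatives were a replicate block, 2 other scalings, other limma settings, a filter on dim genes, other background percentiles and arrays left out. Replicate numbers were not taken as pairs in the main fit. The correlation of deviations between same-numbered arrays, over all genes, was between -0.0606 and 0.0395. Most genes were above background on no array, so these values cannot show whether the samples were paired.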

Additional observations from a re-analysis of the deposited data

Results flagged for a closer look

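In 4 of 90 groups of 4 arrays tested, 1 array stood apart from the other 3 by Dixon's test at the 95% level, which chance alone does in about 1 of 20 groups. Irf2 was 6.91 in a3a6KO 4, against 7.07 to 7.09 in the other a3a6KO samples. Irf3 was 6.68 in a3a6KO 1, against 5.93 to 6.05 in the others. Irf7 was 4.96 in control 4, against 2.78 to 3.13 in the other control samples. The mean centred value over the members was -0.191 in a3a6KO 4, against -0.075 to -0.065 in the other a3a6KO samples.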

How the results depend on the processing

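Under every alternative run, limma called 0 members and 0 genes, with 929 to 1061 genes at an unadjusted p under 0.05 (165 where dim genes were left out), and the members' smallest adjusted p lay between 0.786 and 0.987. Members lower in a3a6KO cells numbered 27 with the replicate block, which changed no call, 28 when arrays were centred on the intron sets, 8 of the 11 bright members when dim genes were left out, and 23 to 29 with single arrays left out. With dim genes left out, 3 antiviral effectors, 0 sensors and 4 class I genes remained. The median was then -0.2875 for members and -0.3075 for the antiviral effectors, which is the difference of Ifi35 alone. The gap to class I genes was -0.1325. With single arrays left out, the medians ranged over -0.19 to -0.036 for members, -0.28 to -0.10 for antiviral genes and sensors, and -0.22 to 0.0004 for class I genes, and the gap between the last 2 over -0.21 to 0.11. Members above background on at least 4 arrays numbered 18 at the 90th percentile of the intron sets and 1 at the 99th, against 11 at the 95th. Of all 19505 genes, 4929 passed at the 90th, 517 at the 99th and 2774 at the 95th. Of 40 single genes recomputed, 10 reversed in at least 1 alternative, and 28 moved by over 1.5 times when 1 array was left out. Without control 4 and a3a6KO 3, Ifngr1 was 0.033 and Dhx58 -0.057. With single arrays left out, the ranges were -0.038 to 0.335 for Ifnar1, -0.072 to 0.375 for Ifnar2, -0.29 to 0.0008 for Ifngr1, -0.0375 to 1.09 for Ifih1, -0.0425 to 0.23 for Dhx58, -0.47 to 0.021 for Trim25, -0.65 to 0.16 for Psmb8, -0.57 to 0.0475 for Psmb9, -0.29 to 0.0067 for H2-K1 and -0.24 to 0.033 for H2-D1. The cause of the reversals was not tested. Signal over background limits 26 members, which have no level above the intron sets on any array.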

Other observations

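Upstream of the response, the listed interferon genes, signalling proteins and sensing adaptors more often had the higher mean in a3a6KO cells, by small amounts. Above background on no array were 7 of 7 ligands, 7 of 10 signalling genes and 8 of 12 sensing genes, so most of these directions lack a measured level. Of all 19505 genes, 9683 had the higher mean in a3a6KO cells. Among ligands, 5 of 7 had the higher mean, with a median difference of 0.0275. Ifng, the type II interferon, differed by 0.34 (SE 0.23), which was 0.20 without a3a6KO 4 and 0.53 without a3a6KO 2. Ifnb1 differed by 0.1475, Ifnk by -0.09 and Ifne by 0.025, all below background. Of 10 signalling genes, 7 had the higher mean, with a median difference of 0.085. Tyk2, a kinase bound to the type I receptor, measured 5.32, 5.35, 6.36 and 4.15 in a3a6KO samples, against 7.31, 5.77, 6.55 and 6.28 in control samples. It was above background on 2 control arrays and no a3a6KO array, with a difference of -1.18 (SE 0.47, limma adjusted p = 0.944). Jak2, a kinase bound to the interferon gamma receptor, measured 7.13, 6.87, 7.27 and 6.94 in a3a6KO samples, against 6.54, 6.48, 6.75 and 7.29 in control samples. Pias1 and Socs3, negative regulators of the pathway, differed by -0.3675 and -0.285.

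Of 12 sensing genes, 8 had the higher mean in a3a6KO cells, with a median difference of 0.061. Rnf125, a ubiquitin ligase that turns over RIG-I, was above background on all 8 arrays, with 9.18, 9.02, 9.33 and 8.72 in a3a6KO samples, against 9.16, 8.11, 9.07 and 8.75 in control samples. Tlr3, an endosomal receptor for double-stranded RNA, measured 6.15, 6.27, 6.20 and 6.91 in a3a6KO samples, against 6.31, 6.52, 7.79 and 6.61 in control samples. Tlr7 and Tbk1 differed by 0.285 and 0.29, below background. The further factors Irf4, Irf5, Batf2 and Ifi204 were below background on all arrays, and 1 of the 4 had the lower mean in a3a6KO cells.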
